A study of Mus musculus with 30 samples.

Results

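Epithelial cells from mouse lung organoids exposed to a cocktail of factors found in idiopathic pulmonary fibrosis (IPFc) were compared directly with epithelial cells exposed to TGF-β alone. The comparison takes every library labelled as CD45-/CD31-/Epcam+ cells with the treatment IPFc or TGF-β, and these are 7 of the 15 epithelial and of the 30 libraries analysed in all. The cultures held 300000 Epcam+ lung cells of wild-type (WT) C57BL/6J adult mice mixed 1 to 1 with fibroblasts of the mouse lung line CCL206, whose division mitomycin C had stopped. After 72 hours, Epcam microbeads separated epithelial from fibroblast cells, and each fraction was sequenced as bulk RNA. IPFc had 9 factors (TGF-β, TNFα, IL-1β, TSLP, IL-33, IL-13, IL-4, IL-8 and CCL2), and the comparison group received TGF-β alone at 2 ng/ml. The dose of TGF-β within the cocktail is not given in the sources used here, so the groups differ by the other 8 factors and possibly by that dose. There were 4 IPFc libraries (mice 1 to 4) and 3 TGF-β libraries (mice 2 to 4), and an equal number marks cultures of 1 animal. Each group rests on a single fibroblast line, and the epithelial cells are a mixture of alveolar and airway types.

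TGF-β signals through SMAD proteins and is known for driving matrix production, contractile genes and loss of epithelial features in lung. IL-4 and IL-13, the type 2 cytokines of the cocktail, act through a shared receptor chain and STAT6, and are known for turning airway cells toward mucus and chitinase-like protein secretion. TNFα and IL-1β act mainly through NF-κB.

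Below, IPFc values are given in the order of mice 1, 2, 3 and 4 and TGF-β values in the order of mice 2, 3 and 4, as CPM, the reads of a gene per 1000000 reads on genes of its library. Between 12531825 and 17148721 reads were counted per IPFc library and between 8275413 and 18826266 per TGF-β library. Genes were tested with edgeR's quasi-likelihood test over the 15 epithelial libraries (4 vehicle, 4 with a cocktail of exacerbation factors, 4 IPFc and 3 TGF-β) with the mouse as a block. Log2 fold changes are IPFc minus TGF-β, and genes with an adjusted p under 0.05 were called.

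The epithelial libraries did not hold epithelial RNA alone. The share of fibroblast RNA, estimated from fibroblast genes as the ratio to the fibroblast library of the same culture, was 14.9%, 16.1%, 4.81% and 9.54% in IPFc and 27.5%, 26.4% and 31.3% in TGF-β libraries. The groups did not overlap, with means of 11.3 ± 5.18% (SD, n = 4) and 28.4 ± 2.62% (SD, n = 3), and the exact two-sided permutation test gave p = 0.0571, the smallest that 4 against 3 libraries allow. Within mice 2, 3 and 4 the difference of IPFc minus TGF-β was -11.4, -21.5 and -21.8 percentage points. Vehicle libraries held 4.14% to 9.49%. Whether more fibroblasts passed the Epcam separation or each carried more RNA cannot be told apart in bulk libraries. Nor can these be told apart from a change in the epithelial cells' own RNA, in its amount or in the fibroblast genes used. From these shares alone, a gene made by epithelial cells at an equal level would stand 0.31 higher in IPFc on the log2 scale. For this reason, genes are given, where it bears on them, with their fibroblast part, the percentage of a gene's CPM that the share of fibroblast RNA would bring along, and with a second fold change that takes the expected mixture of both fractions as an offset in the test. A part near or over 100% means that the fibroblast RNA alone would give the value. Epithelial RNA in a fibroblast library would raise the part of epithelial genes.

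**Figure D1:**
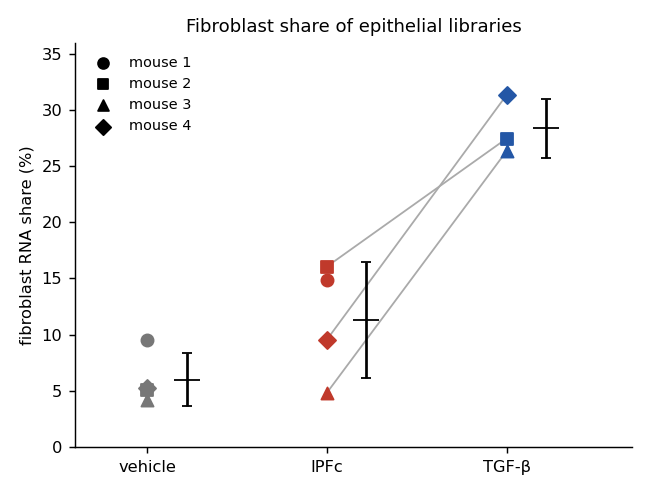
Fibroblast RNA share (%) of each epithelial library by treatment, with a symbol for each mouse, grey lines joining the IPFc and TGF-β cultures of a mouse, and bars for mean ± SD. The TGF-β libraries lie between 26.4% and 31.3%, above the 4 IPFc libraries at 4.81% to 16.1%.

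Of 18024 genes tested, 3345 (18.6%) were higher and 3368 (18.7%) were lower in IPFc than in TGF-β. The larger differences were more often lower in IPFc, with 779 higher and 1654 lower genes past an absolute log2 fold change of 1. Among the lower genes, 1194 (35.5%) had a fibroblast part of at least 50% in the TGF-β libraries, against 119 (3.56%) of the higher genes. With the offset, 2399 genes (13.3%) were higher and 1892 (10.5%) lower, and 2215 higher and 1637 lower genes were called the same way in both tests. A test with the log of the share as a covariate called 490 genes higher and 302 lower. The share did not overlap between the groups, so this covariate is confounded with the treatment. A call lost in it does not by itself show a fibroblast origin, and such calls are given beside the genes below. The median log2 fold change over all genes was -0.04 without and -0.01 with the offset. The counts of each gene list below are to be read beside 18.6% and 18.7% over all genes, or 13.3% and 10.5% with the offset.

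The genes with the smallest adjusted p on the higher side were Chil4, Clca1, Retnla, Agr2, Bpifa1, Sprr2a3, Pigr, Reg3g, Bpifb1, Atp6v1b1, Slc26a4 and Tgm1. On the lower side they were Ctse, Nrk, Acta2, Cdh11, Ccn2, Tagln, Inhba, Igfbp7, St6gal1, Tnfrsf11b, Gadd45a and Tspan7. They were picked for small adjusted p, calls in both tests and 1 direction in all 3 mice, so a clear separation of their groups follows from the choice. The upstream sequences of 4 genes are shown because they hold letters of the binding motifs for factors downstream of the cocktail. They are the 250 bases before the gene start in RefSeq (GRCm38.p6), written on the gene's own strand with the motif in capitals. Retnla lies on the plus strand with its bases at chr16:48842359-48842608, Chil4 on the minus strand at chr3:106219480-106219729, Sprr2a3 on the plus strand at chr3:92285054-92285303, and Itgb6, an integrin chain that activates latent TGF-β, on the minus strand at chr2:60722604-60722853.
Retnla: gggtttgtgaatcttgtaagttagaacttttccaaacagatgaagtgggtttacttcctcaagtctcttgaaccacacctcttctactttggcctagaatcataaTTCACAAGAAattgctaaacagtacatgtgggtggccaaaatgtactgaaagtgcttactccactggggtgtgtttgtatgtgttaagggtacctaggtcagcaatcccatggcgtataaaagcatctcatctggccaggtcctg
Chil4: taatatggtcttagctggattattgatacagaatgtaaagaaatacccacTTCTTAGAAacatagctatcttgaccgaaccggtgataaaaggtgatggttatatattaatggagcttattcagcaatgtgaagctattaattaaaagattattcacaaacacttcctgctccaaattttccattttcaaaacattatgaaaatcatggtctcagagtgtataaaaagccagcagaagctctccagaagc
Sprr2a3: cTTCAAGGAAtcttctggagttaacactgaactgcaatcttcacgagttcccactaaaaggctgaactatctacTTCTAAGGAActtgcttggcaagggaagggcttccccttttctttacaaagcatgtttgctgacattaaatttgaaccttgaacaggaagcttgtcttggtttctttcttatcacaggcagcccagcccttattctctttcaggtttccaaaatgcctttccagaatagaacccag
Itgb6: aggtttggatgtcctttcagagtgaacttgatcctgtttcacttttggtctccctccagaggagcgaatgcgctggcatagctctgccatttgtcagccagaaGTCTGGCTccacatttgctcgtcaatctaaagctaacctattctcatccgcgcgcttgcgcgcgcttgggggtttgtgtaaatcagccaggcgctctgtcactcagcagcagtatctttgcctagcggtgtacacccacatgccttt
The capitals in Retnla are the STAT6 pattern TTCNNNNGAA, 145 to 136 bases before the start, and those in Chil4 are the general STAT pattern TTCNNNGAA, 200 to 192 bases before it. Sprr2a3 holds both, and Itgb6 holds the SMAD pattern AGCCAGAC read on the other strand. RefSeq lists a second start for Itgb6, with its bases at chr2:60673694-60673943, where none of the patterns was found. Of the 12 higher genes, 11 had a RefSeq window of 300 bases around the start, of which 2 held the STAT6 and 5 the STAT pattern (45.5%), against 8.01% and 9.55% of 27025 genes. The 14 higher genes of the type 2 list had 9 windows, of which 1 held the STAT6 (11.1%) and 2 the STAT pattern (22.2%). The κB pattern GGGNNNTTCC stood in 1 of the 11 (Bpifb1), against 6.31% of all genes. Of the 12 lower genes, 7 had a window and 0 held any of these patterns, and of 19 windows of lower TGF-β target genes 2 held the SMAD pattern, against 1.49% of all genes. All patterns were searched on both strands, a match is a description of the letters only, and neighbouring patterns did not overlap in the sequences shown.

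Genes known to respond to IL-4 and IL-13 led the higher side. Chil4, a chitinase-like protein of type 2 airway inflammation (ENSMUSG00000063779), measured 4330, 4550, 3990 and 2770 CPM in IPFc, whereas 0 reads were counted in the 3 TGF-β libraries. Its level was at least 15300-fold higher in IPFc, against a floor of 3 reads per TGF-β library, and vehicle libraries held 0.0806 to 0.961 CPM. Its near-identical neighbour Chil3 measured 5.28 to 8.78 CPM in IPFc and 0 to 0.243 CPM in TGF-β, and since the counting of reads shared by paralogs is not described, the split between both genes is uncertain. Clca1, a secreted mucus-processing protein of goblet cells, stood at 117, 141, 123 and 39.6 CPM in IPFc and had 1 read in the TGF-β libraries together, a ratio of 4280 with a 95% counting interval of 768 to 169000. Retnla, which encodes the type 2 marker RELMα, measured 629, 1330, 1090 and 818 CPM in IPFc and 4.14, 3.73 and 1.45 CPM in TGF-β, with vehicle in between at 92.7 to 164 CPM. Every IPFc library thus lay above every vehicle library and every TGF-β library below them. The log2 fold change of Retnla was 8.45 (SE 0.26, edgeR adjusted p = 3.03e-15) and 8.04 with the offset.

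Genes of mucus and ion secretion were also higher in IPFc. Agr2, a protein disulfide isomerase needed for mucin folding, measured 192, 178, 94.4 and 64.2 CPM in IPFc and 3.88, 1.13 and 0.967 CPM in TGF-β. Slc26a4, the anion exchanger pendrin, measured 164, 253, 304 and 242 CPM in IPFc and 5.21, 2.19 and 1.33 CPM in TGF-β, where vehicle held 3.84 to 5.89 CPM. The log2 fold changes were 5.95 (SE 0.19) for Agr2 and 6.42 (SE 0.30) for Slc26a4. Atp6v1b1, a subunit of the proton pump, reached 28.6 to 80.1 CPM in IPFc and 0.121 to 1.12 CPM in TGF-β. Muc5b, a gel-forming mucin of the airways, measured 310, 391, 140 and 122 CPM in IPFc and 12.2, 5.51 and 3.75 CPM in TGF-β, a log2 fold change of 5.09 (SE 0.29, edgeR adjusted p = 2.78e-11). Unlike for Slc26a4, vehicle lay between the groups for Agr2 (15.2 to 36.4 CPM), Atp6v1b1 (3.79 to 12.6 CPM) and Muc5b (29.4 to 114 CPM). The other secreted airway mucin, Muc5ac, was low in both groups at 0.544 to 2.10 CPM and 1.33 to 1.86 CPM, with a log2 fold change of -0.19 (SE 0.50, edgeR adjusted p = 0.809). Spdef, a transcription factor of goblet cell differentiation, was 2.56 to 3.09 CPM in IPFc and 2.90 to 3.72 CPM in TGF-β (log2 fold change -0.18, SE 0.26, edgeR adjusted p = 0.627). Higher mucus genes therefore came without a called difference in Muc5ac or Spdef.

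**Figure D2:**
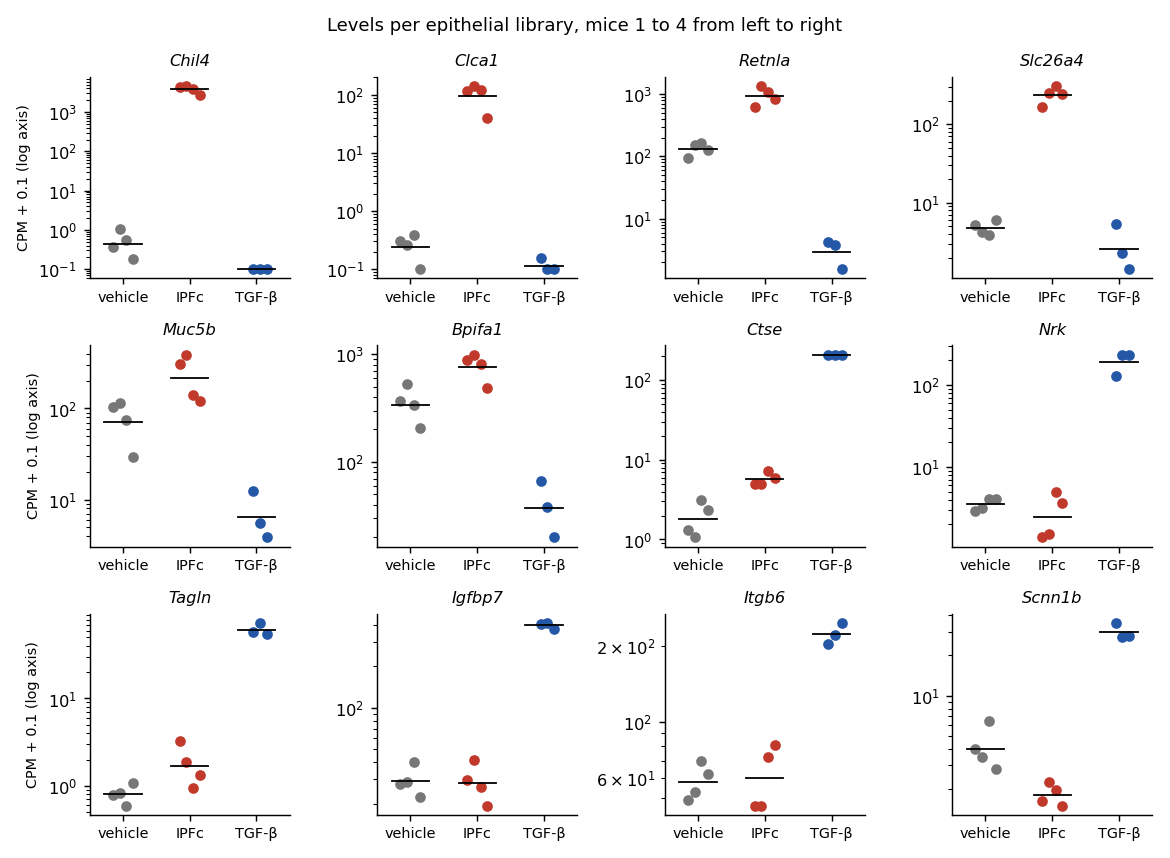
CPM + 0.1 (log axis) of 12 genes in each epithelial library of vehicle, IPFc and TGF-β cultures, with mice from left to right and a bar at the mean of the log values. Chil4 has no reads in TGF-β, while Ctse, Nrk and Scnn1b are far higher in the 3 TGF-β libraries than in the 4 IPFc libraries.

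Of the 28 genes on the type 2 list that were tested, 14 were higher and 4 lower in IPFc (median log2 fold change 0.83, against -0.04 over all genes), and with the offset 13 were higher and 2 lower. Alox15, a lipoxygenase induced by IL-4 and IL-13, measured 10.5, 19.0, 10.7 and 0.544 CPM in IPFc and 0.266, 0 and 0 CPM in TGF-β, with the library of mouse 4 far below the other IPFc libraries. Fcgbp, a mucus-binding protein, was 6.76 to 55.5 CPM against 0.242 to 2.92 CPM. Il4ra, the receptor chain shared by IL-4 and IL-13, was 345, 376, 337 and 276 CPM in IPFc and 215, 187 and 148 CPM in TGF-β (log2 fold change 0.95, SE 0.10, edgeR adjusted p = 1.8e-07). The list did not move as a whole. Arg1, an arginase known from type 2 activated macrophages, was lower in IPFc at 2.72 to 5.94 CPM than in TGF-β at 17.3 to 22.5 CPM (log2 fold change -2.24, SE 0.19). Cish, a cytokine feedback inhibitor, was also lower, at 14.8 to 38.5 CPM against 46.3 to 71.4 CPM (log2 fold change -0.67, SE 0.16). Socs1, another feedback inhibitor, was at 0.710 to 2.10 and 0.604 to 0.744 CPM with an edgeR adjusted p of 0.0922 (0.0299 with the offset). With the log share as a covariate Cish was -0.11 on the log2 scale (edgeR adjusted p = 0.922), Il4ra 0.77 (0.0526) and Chil3 5.28 (0.0547), and none of these was then called.

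Secreted defence proteins were higher in IPFc throughout the called genes of their list. Of 21 tested, 14 were higher and 0 lower, with a median log2 fold change of 1.26 (1.15 with genes without reads in 1 group set at their bound), and 11 stayed called with the offset. Bpifa1, an airway surface protein, measured 884, 993, 814 and 481 CPM in IPFc and 67.1, 38.1 and 19.8 CPM in TGF-β (log2 fold change 4.41, SE 0.14, edgeR adjusted p = 6.88e-15). Vehicle libraries held 205 to 529 CPM of Bpifa1, above every TGF-β library and overlapping the IPFc range. Reg3g, an antibacterial lectin, was 224, 288, 165 and 73.4 CPM against 4.89, 1.30 and 0.121 CPM (log2 fold change 6.55, SE 0.24). Pigr, the receptor that carries IgA to the airway surface, was 132, 156, 85.6 and 41.5 CPM against 4.57, 2.67 and 0.725 CPM (log2 fold change 5.27, SE 0.20). Bpifb1 and the iron-binding protein Ltf behaved alike, with log2 fold changes of 4.63 and 3.22. In vehicle Reg3g was 32.7 to 182 CPM, Pigr 8.06 to 44.5 CPM and Ltf 450 to 987 CPM. These ranges lay above every TGF-β library and overlapped IPFc, whereas vehicle Bpifb1 lay between the groups at 23.2 to 74.8 CPM. Complement C3 was 373 to 659 CPM in IPFc and 147 to 167 CPM in TGF-β, but its log2 fold change of 1.68 fell to 0.42 with the offset (edgeR adjusted p = 0.00406), where its fibroblast part was 50.8% in IPFc libraries. Lcn2, an acute phase protein, was 12.8 to 24.7 CPM against 4.35 to 11.4 CPM (log2 fold change 1.26, SE 0.18).

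Of 28 goblet cell and mucin genes 20 were higher and 0 lower (18 and 0 under the offset), with a median log2 fold change of 1.89 (1.17 with genes at their bound). Among 23 basal cell genes 18 were higher and 3 lower (median 2.25, or 0.91 with genes at their bound), and 13 of the higher ones stayed called with the offset. Krt5, the keratin of airway basal cells, measured 177, 344, 160 and 7.14 CPM in IPFc and 61.8, 28.6 and 1.81 CPM in TGF-β. The libraries of mouse 4 were the lowest in both groups and in vehicle, which ranged from 13.4 CPM in mouse 4 to 732 CPM in mouse 2. Within mice 2, 3 and 4 the IPFc culture was higher each time (log2 fold change 2.60, SE 0.24, edgeR adjusted p = 4.14e-08), but the unblocked edgeR test gave an adjusted p of 0.10. The same held for Krt14, at 1.63 to 81.2 and 0.846 to 9.56 CPM (adjusted p = 2.37e-05 with and 0.0754 without the block), and for the basal cell receptor Ngfr (1.58e-05 and 0.0936). Trp63, the transcription factor p63, was 17.2, 19.4, 15.3 and 6.21 CPM against 4.04, 2.92 and 0.483 CPM and did not overlap (log2 fold change 2.83, SE 0.35). Krt5 and Ngfr were lower in IPFc than in vehicle in every mouse. The IPFc and vehicle means were 172 and 334 CPM for Krt5, 3.6 and 7.36 CPM for Ngfr and 39.1 and 54.7 CPM for Krt14. Krt14 was higher in IPFc than in vehicle in mice 1 and 4. Trp63 was higher than in vehicle in every mouse, with vehicle at 1.45 to 17.0 CPM. These differences from vehicle were not tested. The squamous genes Krt4, Sprr2a3 and Tgm1 did not overlap between the groups. Krt4 was 116 to 202 CPM against 14.8 to 26.6 CPM, Sprr2a3, a cornified envelope protein of a multigene family whose reads may be shared, 173 to 255 against 10.8 to 12.7 CPM, and Tgm1, a transglutaminase that crosslinks that envelope, 305 to 370 against 69.3 to 75.3 CPM. In vehicle libraries Tgm1 was 294 to 401 CPM and Krt4 173 to 247 CPM, which overlapped the IPFc but not the TGF-β range. Vehicle Sprr2a3 lay between the groups at 33.1 to 56.2 CPM.

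Alveolar type 2 (AT2) cell genes were also mostly higher in IPFc, with 20 of 26 higher and 2 lower (median log2 fold change 0.83), and 14 higher and 3 lower with the offset. Sftpa1, a surfactant-associated host defence lectin, measured 1110, 1240, 1170 and 946 CPM in IPFc and 64.9, 40.5 and 24.3 CPM in TGF-β (log2 fold change 4.83, SE 0.23, edgeR adjusted p = 2.44e-12). Vehicle libraries were at 737 to 937 CPM. Sftpb, which is essential for surfactant films, was 3930, 5360, 4120 and 3970 CPM against 1510, 1370 and 938 CPM (log2 fold change 1.94, SE 0.12), and Sftpd, a related lectin, 1160 to 1400 against 282 to 370 CPM. The chemokine Cxcl15, made by AT2 cells, was 1200 to 1810 CPM against 185 to 286 CPM (log2 fold change 2.87, SE 0.18). The lipid transporter Abca3 followed at 367 to 468 against 157 to 232 CPM (log2 fold change 1.16, SE 0.13). The surfactant gene that defines AT2 cells, Sftpc, overlapped between the groups at 2190, 3710, 3150 and 2290 CPM and 2640, 1600 and 984 CPM. Its log2 fold change of 0.91 (SE 0.26, edgeR adjusted p = 0.00997) fell to 0.52 with the offset (edgeR adjusted p = 0.152), and Lamp3, of lamellar bodies, also lost its call, from 0.76 (SE 0.22) to 0.37 (adjusted p = 0.214). Log2 fold changes were thus larger for the lectins Sftpa1 and Sftpd than for Sftpc, a difference that was not tested. With the log share as a covariate Sftpc and Lamp3 were not called either (edgeR adjusted p = 0.249 and 0.614). Apart from Sftpa1, the AT2 genes named here had a lower mean in IPFc than in vehicle. The IPFc and vehicle means were 4350 and 5860 CPM for Sftpb, 2830 and 4060 CPM for Sftpc and 398 and 532 CPM for Abca3. They were 126 and 159 CPM for Lamp3, 1290 and 1340 CPM for Sftpd and 1550 and 1600 CPM for Cxcl15.

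**Figure D3:**
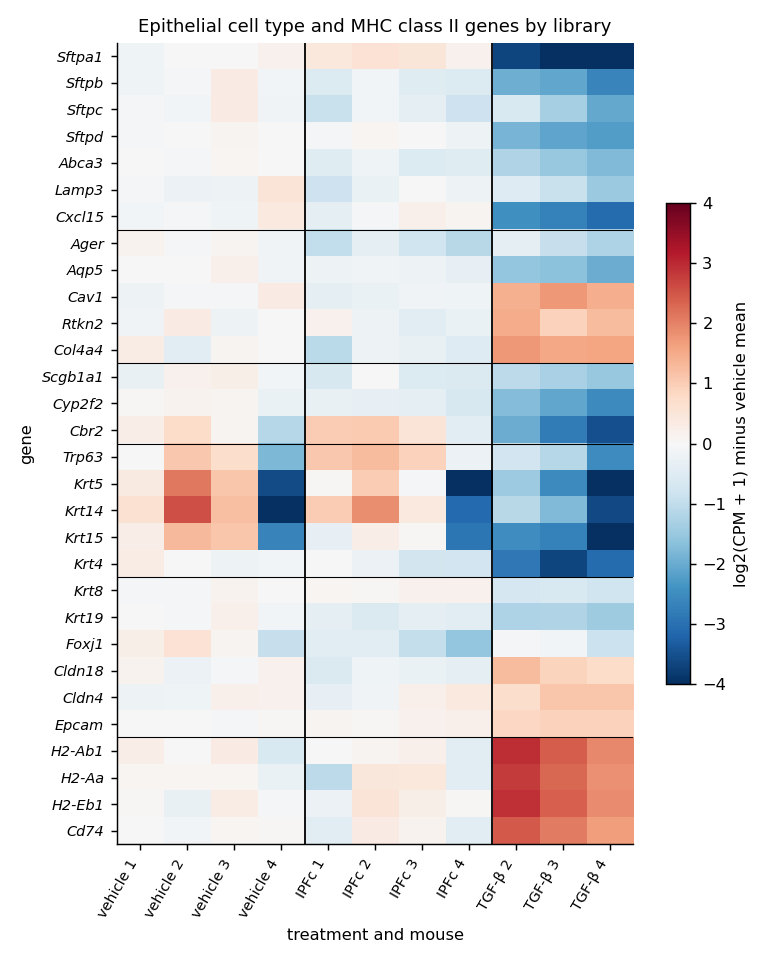
Difference of log2(CPM + 1) from the vehicle mean for genes of AT2, AT1, club, basal and other epithelial cells and of MHC class II, with a column for each epithelial library by treatment and mouse. Colours are capped at 4. In the 3 TGF-β columns Sftpa1, Cxcl15 and Cbr2 are blue (lower) and Cav1, Col4a4 and MHC class II genes red (higher), and Krt5 and Krt14 are blue in mouse 4 under every treatment.

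Club cell genes had 16 of 25 higher and 2 lower in IPFc (median log2 fold change 1.00). Scgb1a1, the secretoglobin of club cells, was 629, 990, 671 and 656 CPM in IPFc and 476, 397 and 338 CPM in TGF-β (log2 fold change 1.02, SE 0.11, and 0.67 with the offset). Cyp2f2, a club cell cytochrome, was 199 to 254 CPM against 52.2 to 92.3 CPM, and the carbonyl reductase Cbr2 129 to 362 against 14.6 to 43.6 CPM. The IPFc and vehicle means were 737 and 991 CPM for Scgb1a1, 234 and 312 CPM for Cyp2f2 and 275 and 194 CPM for Cbr2. Of 28 ciliated cell genes 3 were higher and 7 lower, beside 18.6% and 18.7% over all genes. Foxj1, the master regulator of motile cilia, was 6.91 to 16.4 CPM in IPFc and 11.8 to 21.4 CPM in TGF-β (log2 fold change -0.55, SE 0.17, edgeR adjusted p = 0.0167), and this call was lost without the block, without mouse 3 (adjusted p = 0.159), without mouse 4 (0.0769) and with the log share (0.871).

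The genes of AT1 cells split. Of 25 tested, 6 were higher and 11 lower in IPFc (median log2 fold change -0.43), with 5 and 12 under the offset. Aqp5, the water channel of AT1 and gland cells, was 1130, 1170, 1120 and 1030 CPM in IPFc and 443, 418 and 327 CPM in TGF-β (log2 fold change 1.60, SE 0.10). Cav1, a caveola protein abundant in AT1 cells, was lower at 42.5, 45.3, 50.4 and 48.7 CPM against 149, 184 and 154 CPM (log2 fold change -1.67, SE 0.12, and -1.19 with the offset). Col4a4, a basement membrane collagen chain, was 5.67, 11.4, 10.6 and 8.85 CPM against 45.8, 40.1 and 41.4 CPM, with a fibroblast part of 1.11% in TGF-β (log2 fold change -2.10, SE 0.20). Rtkn2 was lower too, at 0.646 to 1.52 against 3.24 to 5.31 CPM, but was not called with the log share (edgeR adjusted p = 0.255) or the share from Xist (0.0542). Ager, the receptor most used to mark AT1 cells, was 112, 168, 129 and 102 CPM against 172, 118 and 94.6 CPM, with a log2 fold change of 0.11 (SE 0.19, edgeR adjusted p = 0.707) that was -0.26 with the offset (adjusted p = 0.359). Pdpn was 5.67 to 19.6 CPM against 13.1 to 20.7 CPM (log2 fold change -0.43, edgeR adjusted p = 0.058, and -0.71 with 0.00536 under the offset).

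General epithelial genes differed in both directions. The keratins Krt8 and Krt19 were higher in IPFc, at 2370 to 2580 against 1300 to 1480 CPM and at 2410 to 2780 against 1340 to 1570 CPM. Epcam, the surface protein used for the separation, was lower in IPFc at 233, 223, 245 and 248 CPM than in TGF-β at 384, 410 and 408 CPM, although the TGF-β libraries held more fibroblast RNA (log2 fold change -0.64, SE 0.09, and -0.97 with the offset). Also lower were the claudin genes Cldn4 at 213 to 345 against 432 to 576 CPM (log2 fold change -0.75) and Cldn18 at 114 to 150 against 283 to 410 CPM (log2 fold change -1.23). Cdh1, which encodes E-cadherin, was 637 to 806 CPM against 872 to 909 CPM, with a log2 fold change of -0.18 (SE 0.09, edgeR adjusted p = 0.143) that became -0.52 with the offset (adjusted p = 0.000178). Clu, a secreted chaperone, was 6610 to 8950 CPM in IPFc and 16300 to 18500 CPM in TGF-β (log2 fold change -0.99, SE 0.10). With the log share Epcam was -0.72 (edgeR adjusted p = 0.0715), Cldn18 -1.14 (0.0859) and Krt19 0.94 (0.136), and their calls were lost. Over the list of 36 junction genes 14 were higher and 7 lower, and with the offset 7 were higher and 13 lower.

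Although the cocktail contains TGF-β, the targets of TGF-β were lower in IPFc. Of 35 tested, 30 were lower and 1 higher (median log2 fold change -1.03), and with the offset 20 were lower and 2 higher (median -0.49). Ccn2, a matricellular growth factor induced directly by SMAD signaling, measured 113, 94.2, 103 and 92.1 CPM in IPFc and 372, 455 and 379 CPM in TGF-β (log2 fold change -1.97, SE 0.09, edgeR adjusted p = 1.12e-12). Vehicle libraries were at 76.9 to 105 CPM, close to IPFc, and the offset left its log2 fold change at -2.00, with a fibroblast part of 8.47% in TGF-β. Itgb6 was 46.6, 46.6, 72.5 and 80.8 CPM against 203, 220 and 246 CPM, with a fibroblast part of 0.506% (log2 fold change -1.70, SE 0.12). Thbs1, an activator of latent TGF-β, was 570, 671, 893 and 1260 CPM against 2250, 3020 and 3600 CPM (log2 fold change -1.61, SE 0.10). The feedback gene Skil was 38.7 to 92.0 against 122 to 221 CPM. Pmepa1, a feedback inhibitor, was above its vehicle range of 26.0 to 39.5 CPM in both groups, at 72.9 to 106 CPM in IPFc and 254 to 272 CPM in TGF-β, but the log2 fold change of -1.37 was -0.23 with the offset (edgeR adjusted p = 0.266). Smad7, the inhibitory SMAD, was 30.2 to 36.6 CPM against 44.1 to 52.2 CPM with an adjusted p of 0.073.

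Ctse and Nrk had the smallest adjusted p among the 12 lower genes, and almost none of their RNA is accounted for by fibroblasts. Ctse, the aspartic protease cathepsin E, measured 4.87, 4.84, 7.04 and 5.90 CPM in IPFc and 208, 210 and 206 CPM in TGF-β, with a fibroblast part of 0.539% (log2 fold change -5.03, SE 0.18, edgeR adjusted p = 4.02e-14). Nrk, a germinal center kinase family member, measured 1.28, 1.40, 4.84 and 3.57 CPM and 130, 236 and 233 CPM, with a part of 0.108% (log2 fold change -5.93, SE 0.22). In vehicle both were low, at 0.961 to 3.05 and 2.80 to 3.95 CPM, below every TGF-β library. St6gal1, a sialyltransferase, was 10.3 to 12.7 CPM against 72.0 to 90.1 CPM. Tspan7, a tetraspanin, was 7.26 to 9.30 against 45.4 to 60.5 CPM and Tnfrsf11b, the RANKL decoy osteoprotegerin, 9.16 to 11.8 against 55.4 to 73.1 CPM. The fibroblast parts of St6gal1, Tspan7 and Tnfrsf11b were larger, at 16.5%, 16.5% and 17.2% in TGF-β and 48.2%, 22.8% and 40.7% in IPFc. Their log2 fold changes of -2.74, -2.62 and -2.61 were -2.53, -2.32 and -2.38 with the offset. Igfbp7, a secreted insulin-like growth factor binding protein, was 29.8, 41.2, 26.3 and 19.2 CPM against 406, 416 and 376 CPM, with a fibroblast part of 22.9% (log2 fold change -3.67, and -2.97 with the offset).

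Contractile and matrix genes were lower in IPFc, and many have a large fibroblast part. Of 18 contractile genes 15 were lower and 0 higher (median log2 fold change -1.67), and 12 stayed lower with the offset. Acta2, smooth muscle actin, measured 20.1, 14.8, 9.04 and 8.78 CPM in IPFc and 249, 303 and 204 CPM in TGF-β. Its log2 fold change was -4.40 (SE 0.19) and -2.52 with the offset (edgeR adjusted p = 1.7e-10), with a fibroblast part of 48.6% in TGF-β. Tagln, an actin-binding protein of the same cells, was 3.19, 1.75, 0.840 and 1.24 CPM against 57.4, 73.6 and 55.0 CPM (log2 fold change -5.32, SE 0.24, and -3.58 with the offset). Of 38 genes of epithelial-mesenchymal transition and extracellular matrix, 34 were lower and 0 higher (median -2.17), but with the offset 17 were lower and 1 higher (median -0.39), and the median fibroblast part was 82.3% in TGF-β. Col1a1, the chain of type I collagen, was 263, 264, 72.5 and 91.7 CPM against 1180, 1120 and 1090 CPM, and its log2 fold change of -3.04 (SE 0.23) became -0.09 (edgeR adjusted p = 0.676). Col3a1, Vim and Fbn1 had fibroblast parts of 121%, 99.3% and 101%, and their log2 fold changes of -2.19, -1.84 and -2.95 became 0.03, 0.06 and -0.35, with adjusted p of 0.895, 0.848 and 0.142. The fibroblast mixture alone thus reached about their TGF-β levels, but the way the share was made largely sets this result. The share is a median over fibroblast reference genes, and these had a median part of 101% in TGF-β libraries by construction. Any gene that moves with the reference genes gets a part near that value. Whether the RNA of Col1a1, Col3a1, Vim and Fbn1 came from fibroblasts alone was therefore not tested by their parts or by the offset. With the share taken from Xist, the log2 fold changes of Col3a1 and Vim were 0.56 and 0.58, and with the log share they were -0.41 and -0.22 (edgeR adjusted p = 0.510 and 0.806). Dmp1, a matrix phosphoprotein, went from -7.06 to -0.44 with the offset (adjusted p = 0.497). With the log share, however, Col1a1, Fbn1 and Dmp1 stayed called lower in IPFc.

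Not all of these genes lost their call. Fn1, which encodes fibronectin, was 1420, 1420, 614 and 936 CPM in IPFc and 7410, 8260 and 9170 CPM in TGF-β, with a fibroblast part of 63.5%, and its log2 fold change went from -3.06 (SE 0.19) to -1.37 (edgeR adjusted p = 6.51e-07). Inhba, the activin A subunit, was 18.4, 23.9, 17.5 and 13.2 CPM against 154, 174 and 149 CPM (log2 fold change -3.07, and -2.00 with the offset). Lox, a collagen crosslinking enzyme, went from -2.85 to -2.07 and Sparc, a matricellular protein, from -1.53 to -0.89. The fibroblast cadherin Cdh11 was 4.46 to 11.7 CPM against 86.2 to 94.9 CPM, with a part of 87.2% and a log2 fold change of -0.74 left from -3.71, and taking the share from Xist in place of fibroblast genes its adjusted p was 0.188. Cdh2, which encodes N-cadherin, had -0.61 left from -2.15 (adjusted p = 0.0166, or 0.756 with the share from Xist and 0.693 with the log share).

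**Figure D4:**
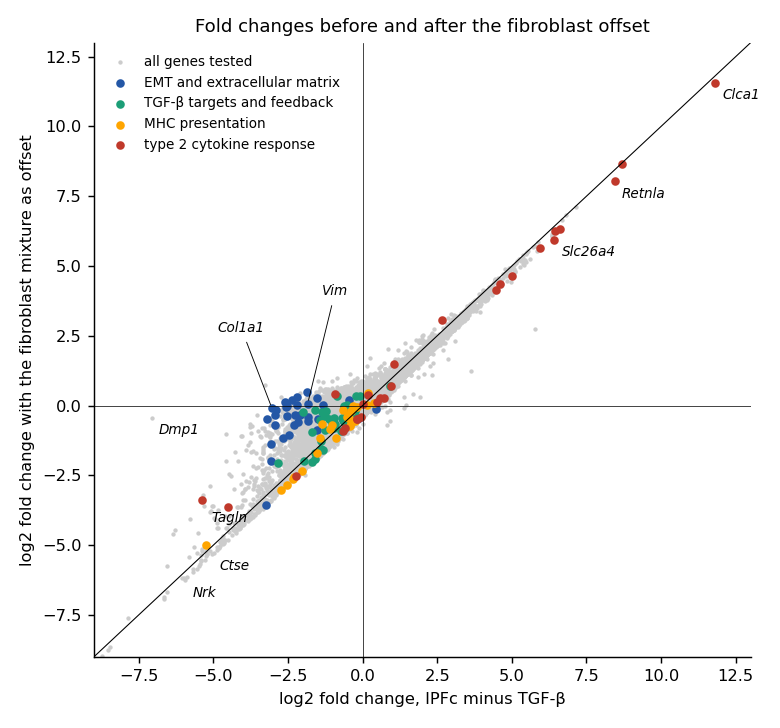
Log2 fold change of IPFc minus TGF-β for each gene tested (x axis) against the same with the expected fibroblast mixture as an offset (y axis), with 4 gene lists in colour and the line of equality. Chil4 lies outside the axes. Col1a1 and Vim lie near 0 on the y axis, while Ctse, Nrk and Clca1 lie near the line.

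The MHC list was lower in IPFc, with 14 of 25 lower and 1 higher (median log2 fold change -0.64), and 14 lower and 0 higher with the offset. The named class II genes, whose products present antigen to CD4 T cells and are also made by AT2 cells, were lower. H2-Ab1 measured 7.98, 8.63, 9.24 and 5.59 CPM in IPFc and 67.7, 47.2 and 32.7 CPM in TGF-β (log2 fold change -2.54, SE 0.19, edgeR adjusted p = 2.14e-09). Cd74, the invariant chain, was 38.1, 66.5, 58.7 and 39.1 CPM against 293, 227 and 170 CPM (log2 fold change -2.02, SE 0.23), and H2-Aa and H2-Eb1 had log2 fold changes of -2.32 and -2.28. With the log share H2-Ab1 stayed called at -2.62 (edgeR adjusted p = 0.00161), but H2-Aa at -2.20 (0.0858), H2-Eb1 at -1.69 (0.199) and Cd74 at -1.51 (0.124) did not. The vehicle levels of these genes were near those of IPFc, with Cd74 at 49.1 to 56.5 CPM. Class I did not move together, as H2-K1 was slightly higher in IPFc (log2 fold change 0.37, and 0.08 with the offset) and B2m, the class I light chain, lower (-1.35, and -0.66 with the offset). B2m lost its call with the share from Xist (-0.26, edgeR adjusted p = 0.745) and with the log share (-0.52, 0.486), as H2-K1 did with the log share (0.33, 0.466). These are multigene families, and reads of related H2 genes may be shared. Immune cells express class II as well. Of 31 immune marker genes, 13 were tested, 2 higher and 5 lower in IPFc, beside 18.6% and 18.7% over all genes. Their summed level was 245 to 306 CPM in IPFc and 165 to 243 CPM in TGF-β, most of it from Cd14 at 118 to 240 CPM. Ptprc, which encodes the leukocyte protein CD45, was at most 0.323 CPM in IPFc and 0.081 CPM in TGF-β, and Tyrobp, Cd3d, Fcgr1 and Marco had 0 reads in all 7 libraries. Mpeg1, Csf1r and Itgax were among the lower ones, at 2.87 to 4.26 against 14.1 to 17.5 CPM, 0.0646 to 0.621 against 1.13 to 2.18 CPM and 0 to 0.0777 against 0.0810 to 1.45 CPM. Their part in the class II difference was not tested.

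The NF-κB targets of TNF and IL-1 showed no common direction without the offset, although both cytokines are in the cocktail. Of 39 tested, 7 were higher and 9 lower in IPFc (median log2 fold change -0.14, or -0.02 with genes at their bound), beside 18.6% and 18.7% over all genes. With the offset more were lower than higher, at 3 higher and 11 lower (median -0.22), beside 13.3% and 10.5% over all genes. The neutrophil chemokine Cxcl3 was 22, 22.5, 23.4 and 25.3 CPM in IPFc and 4.14, 3.81 and 4.35 CPM in TGF-β (log2 fold change 2.59, SE 0.14, edgeR adjusted p = 2.37e-11). Cxcl5 was 98.0, 106, 179 and 175 CPM against 51.3, 69.0 and 82.9 CPM (log2 fold change 1.24, SE 0.13). Tnfaip3, the feedback inhibitor A20, was lower in IPFc at 30.2, 58.5, 63.4 and 96.4 CPM against 110, 203 and 314 CPM (log2 fold change -1.42, SE 0.26, edgeR adjusted p = 0.000168), but -0.83 with the log share (adjusted p = 0.568). Nfkbia, the inhibitor IκBα, was 83.7 to 160 CPM against 127 to 150 CPM (log2 fold change 0.20, SE 0.15, edgeR adjusted p = 0.334). Icam1, an adhesion molecule, was 489 to 539 against 330 to 373 CPM (log2 fold change 0.64, and 0.29 with the offset). Its call was lost with the share from Xist (0.14, edgeR adjusted p = 0.461) and with the log share (0.54, 0.139). Cxcl1 was called higher at 7.58 to 36.2 against 5.63 to 12.4 CPM (log2 fold change 1.40, SE 0.39), but without mouse 2 its adjusted p was 0.0777 and with the offset its log2 fold change was -0.09, beside a fibroblast part of 102% in IPFc, and its adjusted p was 0.0938 with the log share. Among the receptors of the cocktail factors, Tgfbr1 was lower in IPFc (81.5 to 107 against 139 to 172 CPM, log2 fold change -0.61, and -0.91 with an edgeR adjusted p of 0.107 with the log share), whereas Tgfbr2 was 218 to 239 and 212 to 225 CPM (log2 fold change 0.18, SE 0.09, edgeR adjusted p = 0.126).

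Id1, a direct BMP target, was 90.3, 94.2, 119 and 102 CPM in IPFc and 22.1, 15.2 and 11.2 CPM in TGF-β (log2 fold change 2.77, SE 0.20, edgeR adjusted p = 1.25e-09). Vehicle libraries were at 64.1 to 113 CPM. The fibroblast part of Id1 was 102% in TGF-β and 12.5% in IPFc. Its log2 fold change was 2.65 with the offset and 2.31 to 5.13 over all alternatives. The ligand Bmp4 was 105, 108, 106 and 78.0 CPM against 53.6, 38.3 and 38.4 CPM (log2 fold change 1.28, SE 0.11), while Id2 was 29.1 to 38.3 and 28.2 to 32.3 CPM (log2 fold change 0.21, edgeR adjusted p = 0.246). Of the 18 genes on the list of BMP targets 5 were higher and 6 lower, beside 18.6% and 18.7% over all genes.

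Ion channels of the epithelium diverged. Of 29 transport genes 15 were higher and 6 lower in IPFc, beside 18.6% and 18.7% over all genes. Against the higher Slc26a4, 2 subunits of the epithelial sodium channel were lower. Scnn1b measured 1.52, 2.16, 1.87 and 1.40 CPM in IPFc and 35.0, 27.5 and 28.0 CPM in TGF-β (log2 fold change -3.97, SE 0.25, edgeR adjusted p = 1.17e-10), and Scnn1g 5.54 to 8.14 against 23.4 to 30.9 CPM (log2 fold change -1.92, SE 0.19). Vehicle held 2.74 to 6.35 CPM of Scnn1b, above every IPFc and below every TGF-β library. The chloride channel Cftr was 21.6 to 31.5 against 15.2 to 16.6 CPM (log2 fold change 0.81), and was not called with the log share (0.45, edgeR adjusted p = 0.535) or the share from Xist (0.33, 0.226). In prostaglandin synthesis 8 genes were higher and 8 lower of 23, beside 18.6% and 18.7% over all genes. The cyclooxygenase Ptgs2 was lower in IPFc at 203, 274, 340 and 466 CPM against 594, 803 and 1110 CPM (log2 fold change -1.14, SE 0.10). The PGE2 synthase Ptges was higher at 89.6 to 108 against 37.3 to 49.4 CPM (log2 fold change 1.23, SE 0.11).

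Among the lists of growth and metabolism, all called genes of the cell cycle and of lipid synthesis were higher in IPFc without the offset. Of 37 S phase genes 27 were higher and 0 lower (median log2 fold change 0.41), and of 40 G2/M genes 26 and 0 (median 0.42). The shares alone would give 0.31 to a gene made by epithelial cells at an equal level. With the offset 16 and 13 were higher, and 1 and 0 lower (medians 0.25 and 0.23). Mcm5, of the replicative helicase, was 370 to 396 CPM against 207 to 231 CPM (log2 fold change 0.90, SE 0.09, and 0.65 with the offset), and Ccnb1, which encodes cyclin B1, 195 to 251 against 144 to 157 CPM (0.70, and 0.49 with the offset). Mki67, the proliferation marker Ki-67, was 622 to 719 CPM against 435 to 558 CPM, but its log2 fold change of 0.52 was 0.25 with the offset (edgeR adjusted p = 0.219) and 0.06 with the log share (0.949), where Ccnb1 was 0.32 (0.512). Of 37 genes of cholesterol and fatty acid synthesis 32 were higher and 0 lower (median 0.61), and 29 and 0 with the offset. Lss, lanosterol synthase, was 153, 165, 169 and 143 CPM against 79.3, 83.0 and 68.3 CPM (log2 fold change 1.15, SE 0.09). Of 32 glycolysis and hypoxia genes 17 were higher and 8 lower, led by lactate dehydrogenase Ldha at 2870, 2610, 2730 and 2610 CPM against 1140, 1070 and 1010 CPM (log2 fold change 1.44, SE 0.11). In vehicle Ldha was 2720 to 2830 CPM and Lss 139 to 163 CPM, near the IPFc levels. The interferon list was mostly lower, with 2 genes higher and 14 lower of 36 (median log2 fold change -0.46), beside 18.6% and 18.7% over all genes. With the offset 2 were higher and 12 lower (median -0.66). Mx1 went against the list as 1 of the 2 higher genes, at 56.1 to 70.4 against 19.1 to 31.4 CPM (log2 fold change 1.40, SE 0.12).

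**Figure D5:**
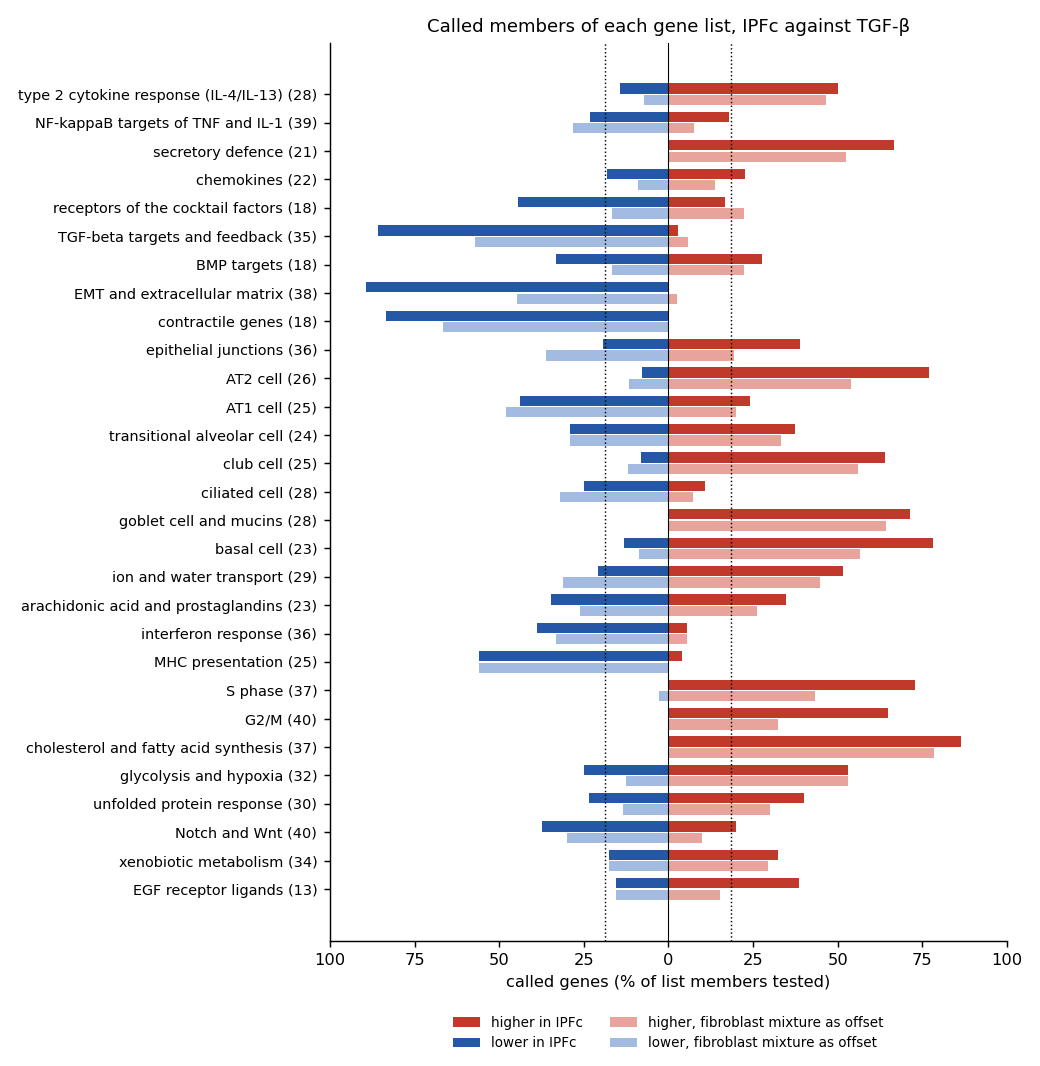
Share of tested members of each gene list that was called higher (to the right) or lower (to the left) in IPFc than in TGF-β, in full colour, and with the fibroblast mixture as an offset, in pale colour. Dotted lines mark 18.6% and 18.7%, the shares over all genes. Goblet, basal, AT2, cholesterol and secretory defence bars reach to the right, and TGF-β target, matrix, contractile and MHC bars to the left.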

How the data were processed

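Raw counts of reads on 55487 Ensembl genes were deposited for each library, made by the authors after adapter trimming (Trimmomatic 0.30) and alignment to GRCm38 patch 6 according to the paper or to GRCm39 according to the labels. The aligner and the counting program are not given in the sources used here. From the deposited counts, edgeR 4.0.16 in R 4.3.3 fitted treatment and mouse over 15 epithelial libraries after TMM normalization (genes with a mean count of at least 1, two-sided quasi-likelihood test, Benjamini-Hochberg adjustment). This left 8 residual degrees of freedom, a prior df of 12.2 and a biological coefficient of variation of 12.7%. The study ran paired tests in DESeq2 1.34.0. CPM use the library total without TMM factors, and standard errors follow from the fold change and its F statistic. Counting intervals (95%) and floors (3 reads) cover counting error only, and no molecular identifiers are described.

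The fibroblast share is the median ratio of CPM to the fibroblast library of the same culture over reference genes with at least 50 CPM there. The fibroblast parts of the reference genes are therefore not independent of the share, and their median was 101% in TGF-β libraries. The share from Xist rests on 1 gene and holds only where the epithelial cells do not express it, and the paper used mice of both sexes. It was 38.2% against 31.3% in the TGF-β library of mouse 4. In the exacerbation cocktail library of mouse 1 it was 45.8% against 16.8%, but 5.04% against 5.08% in vehicle of mouse 2. The offset is the log of the CPM expected if epithelial levels were equal in all libraries, with a prior of 0.1 CPM. The cultures of a mouse were paired by the labels. Deviations from group means correlated by 0.13 on average between IPFc and TGF-β libraries of 1 mouse (0.09 to 0.18), and by -0.05 between mice over all treatments. Between libraries of 1 treatment, chi-square divided by its degrees of freedom lay between 6.51 and 27.1, so none was a repeat.

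The 33 gene lists were written by hand. The members and lists were chosen with earlier results of these data known. Named genes were, per direction, the 12 of lowest adjusted p among those called with and without the offset, past a log2 fold change of 1 either way and moving alike in all 3 mice (predicted genes left out), key genes of the lists with up to 4 called members of each list with the smallest adjusted p, and 5 genes of each direction that lost their call with the offset. Not every gene that the rule allows is reported here. Alternatives were other normalization (DESeq2 1.42.0 size factors), DESeq2, other filters, no block, the 7 libraries alone, robust estimation, each mouse left out, and 4 treatments of the fibroblast share. Simulated counts with known changes were used to test the scripts.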

Additional observations from a re-analysis of the deposited data

Results flagged for a closer look

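Of 113 values examined over the 4 IPFc libraries, 7 had 1 library far from the other 3 by Dixon's criterion, which chance exceeds in about 1 of 20 groups. The IPFc library of mouse 2 was far above the others for Sftpb (5360 CPM), Abca3 (468 CPM) and Scgb1a1 (990 CPM), and that of mouse 3 for Tnfrsf11b (11.8 CPM). The library of mouse 1 was far above them for Cnn1, a contractile gene at 0.798 CPM. The library of mouse 4 was the lowest for Bmp4 (78.0 CPM) and Mx1 (56.1 CPM).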

How the results depend on the processing

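Under DESeq2 size factors, DESeq2, other filters, robust estimation, the 7 libraries alone and no block, the numbers of genes called in each direction stayed within 1.5 times of 3345 higher and 3368 lower. The treatment of fibroblast RNA moved them. Subtracting the fibroblast part left 2008 lower genes and the offset 1892, the log share as a covariate left 490 higher and 302 lower, and 1555 genes with a fibroblast part under 10% held 410 and 376. The offset with the share from Xist gave 1725 and 1320, and this alternative was chosen after seeing the data, as was the reference below. Leaving out each mouse gave 2438 to 3480 higher and 2438 to 2910 lower genes. The difference in fibroblast share was -22.9 percentage points from Xist, and -19.1 to -15.0 points without each mouse, where the exact permutation test cannot reach 0.05. No gene was 50 times higher in fibroblasts, so the planned stricter reference could not be used and 10 times was taken.

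Without the replicate block, 2923 genes were higher and 2868 lower, and 5680 of these 5791 calls were shared with the blocked test. Among named genes the unblocked test lost Krt5, Krt14, Ngfr, Foxj1 and Cxcl1. With the 7 libraries alone, 3784 were higher and 2968 lower with the block and 3337 and 2690 without.

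Of the other values of the 112 genes examined, 1726 kept direction and call, 74 lost and 19 gained it, and 20 changed sign. Muc5ac was 0.034 without the block, 0.086 for the 7 libraries without it, 0.83 with the log share and -0.534 to 0.273 without each mouse. Subtraction gave -0.24 for Ager, 0 for Col3a1, -0.18 for Nfkbia and -2.38 for Cxcl1. The offset gave -0.26 for Ager, 0.062 for Vim, 0.026 for Col3a1, -0.129 for Nfkbia and -0.087 for Cxcl1. With the share from Xist, it gave -0.34 for Ager, 0.58 for Vim, 0.40 for Col1a1, 0.56 for Col3a1, -0.15 for Nfkbia, -0.009 for H2-K1 and 0.066 for Fbn1. The cause was not tested beyond these constructions. With 3 TGF-β libraries, small differences may have been missed.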
